A study of Mus musculus with 9 samples.

Results

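The clustered histone genes encode the H1, H2A, H2B, H3 and H4 proteins that package DNA in dividing cells. They were taken as the rows of the deposited count table whose symbol starts with Hist1h, Hist2h, Hist3h or Hist4h, without pseudogene symbols ending in -ps, and whose counts summed to 10 or more over the 9 libraries. Of 49568 gene rows, 69 matched the symbol pattern and 57 passed the minimum: 5 H1, 13 H2A, 15 H2B, 11 H3 and 13 H4 genes. Only the summed count over all libraries chose them. Just inside the minimum were Hist1h2ae and Hist1h2an with 14 counts each, and just outside were Hist1h1t with 3, Hist1h2al with 2 and Hist2h2aa2 with 1 count. Of the 12 rows left out, 9 had 0 counts in all libraries.

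Total RNA was sequenced from gastrocnemius muscle of the hind limb, taken from C57Bl6J mice at about 8 weeks of age, to find genes whose expression differed after irradiation. RL is the muscle of the irradiated limb, which received 3 sessions of 8.2 Gy at 4 weeks of age and was sampled 3 weeks later. CL is the muscle of the opposite limb of the same mice, and CTL the muscle of mice given 0 Gy. Each group has 3 libraries, RL and CL libraries of the same number come from the same animal, and 6 mice were used in all. No genetic modification is stated for any group, and the CL limb shares the body of an irradiated animal, so it is not an untreated control.

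Most histone mRNAs are made in S phase, when DNA is copied, and fall when replication ends. They carry no poly(A) tail: the transcript ends in a short stem-loop that the protein SLBP binds and that the U7 snRNP helps to process by cleavage just downstream. Libraries from total RNA can therefore hold them, while libraries selected for poly(A) mostly miss them. Some clustered genes also make longer, polyadenylated mRNAs in cells that no longer divide, and adult muscle fibres are non-dividing. H1 is the linker histone that binds DNA between nucleosomes. H2A pairs with H2B, and H3 with H4, to form the nucleosome core.

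The stem-loop is shown first because it marks the 3′ end at which the replication-dependent transcript stops. The capitals mark the 16 bases of the stem-loop within the annotated GRCm38 transcripts of GENCODE vM21, each written 5′ to 3′ on the gene's strand and flanked by lower-case context. The genes were picked to show different stem-loops and different lengths of annotated transcript beyond them.
Hist1h1c, chr13:23739512-23739527, plus strand: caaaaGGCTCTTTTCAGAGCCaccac
Hist1h2bm, chr13:21722506-21722521, plus strand: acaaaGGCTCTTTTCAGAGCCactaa
Hist1h2bb, chr13:23747203-23747218, plus strand: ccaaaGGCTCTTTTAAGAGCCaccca
Hist1h4c, chr13:23698089-23698104, minus strand: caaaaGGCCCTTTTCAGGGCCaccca
Hist1h4i, chr13:22040966-22040981, minus strand: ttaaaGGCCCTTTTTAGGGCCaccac

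The pattern searched on the transcript strand was GG, any 2 bases, CTTTT, any base, AG, any 2 bases and CC, and 38 of the 57 genes hold it, against 0.329% of 21877 protein-coding gene names. The form of Hist1h1c and Hist1h2bm is the most frequent, with 21 genes, and the form of Hist1h4c is found in 7. Of the 19 genes without a match, 13 have under 30 bases of annotated 3′ UTR, so the annotated transcript ends before the place where it could stand. The transcripts differ in what follows the stem-loop. The Hist1h2bm annotation goes on for 46 bases and that of Hist1h2bb for 23, while that of Hist1h4i goes on for 330, of Hist1h4c for 454 and of Hist1h1c for 840 bases. By annotated 3′ UTR length the genes fall into 38 with 0 to 213 bases and 19 with 376 to 4931 bases, and they are called short and long 3′ UTR genes here. The split was placed at 300 bases, in that gap, after the counts had been seen. The stem-loop is present in 21 of the 38 short and 17 of the 19 long 3′ UTR genes.

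Promoters are shown for 1 abundant linker histone gene, Hist1h1c, 1 low one, Hist1h1a, and 1 H2B gene, Hist1h2bm, because the last 2 were called in RL against CTL in a fit without CL 1, while Hist1h1c was not. Each is the 120 bases upstream of the RefSeq start on GRCm38, with capitals for CCAAT on either strand, TATAAA and ATTTGCAT.
Hist1h1c, chr13:23738687-23738806, plus strand: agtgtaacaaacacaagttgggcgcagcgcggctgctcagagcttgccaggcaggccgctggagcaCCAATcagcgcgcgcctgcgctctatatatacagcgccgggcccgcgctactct
Hist1h1a, chr13:23763548-23763667, plus strand: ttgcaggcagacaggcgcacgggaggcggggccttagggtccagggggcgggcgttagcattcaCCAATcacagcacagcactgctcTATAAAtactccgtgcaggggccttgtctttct
Hist1h2bm, chr13:21721924-21722043, plus strand: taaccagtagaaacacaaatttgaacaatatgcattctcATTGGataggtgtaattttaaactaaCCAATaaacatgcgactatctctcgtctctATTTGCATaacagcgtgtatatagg

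RefSeq promoter windows, from 250 bases before to 50 after the start, matched 51 of the 57 genes. Searched on both strands, CCAAT was present in 42 of them (82.4%) against 37.4% of all 32851 windows. TATAAA was present in 60.8% against 13.6%, and the octamer ATTTGCAT in 21.6% against 1.7%. The classes differed: CCAAT stood in all windows of the H1, H2A, H2B and H3 genes and in 25.0% of the H4 windows, and the octamer stood in 6 of 13 H2A and 5 of 13 H2B windows and in 0 of the other classes. H2A and H2B genes often lie head to head, so neighbouring windows can share bases. CCAAT was found in 83.8% of the short and 78.6% of the long 3′ UTR genes with a window, and TATAAA in 67.6% and 42.9%.

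Library totals ran from about 30836100 to about 44587500 counts, and the 57 genes together took 0.0138% to 0.0204% of them. Most of these genes were thinly counted: the median gene had 8 to 25 counts in a library, 24 genes stayed under 10 counts in every CTL library, and 9 genes reached 100 counts in every library. Levels are given in CPM, the usual unit of counts relative to the TMM-scaled library total, and as mean ± SD over the 3 libraries of a group. The TMM factors ran from 0.921 in CTL 3 to 1.17 in CL 1, so this scaling lowers the CPM of CL 1 most. The library CL 1 stood apart. The summed level of 6 lymphocyte markers was 16.5 CPM in CL 1 and 0.0725 to 0.194 CPM in the other 8 libraries. Each of these markers had 45 or more counts in CL 1, led by Ms4a1 with 338, and 5 or fewer in any other library, and Cd3e was at 0 in all CTL libraries and in CL 2 and CL 3. The summed level of 8 macrophage markers was also highest in CL 1, at 212 CPM. The counts of genes and the summed levels of the short 3′ UTR genes that rest on the CL group are therefore given with and without CL 1.

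The genes lie in a few places. On chromosome 13 are 47 of them, 19 between 21715763 and 22043676 and 28 between 23531050 and 23764406. Chromosome 3 holds 7, chromosome 11 holds 2 and chromosome 6 holds Hist4h4. A few genes carried most of the signal. Hist1h1c, a linker histone gene known to be expressed in non-dividing tissues, was the most abundant at 36.3 CPM per kb of exon. Per kb it was followed by the short 3′ UTR H4 gene Hist1h4h at 18.7, Hist1h4c at 17.8, Hist1h4d at 11.9, the H2B gene Hist1h2bc at 11.8 and the linker histone gene Hist1h1e at 10.8 CPM per kb. The 19 long 3′ UTR genes held 89.2% of the summed CPM in CTL, 85.8% in RL and 81.1% in CL 1.

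RL and CTL were compared by class to see which histone transcripts differed in irradiated muscle. H2A and H2B transcripts were higher in RL without overlap between the groups, H3 was higher on average with overlap, and the means of H1 and H4 differed by less than the spread between libraries. Summed H2B transcripts stood at 27.1, 25.6 and 23.6 CPM in CTL and at 32.4, 34.0 and 32.9 CPM in RL, a log2 ratio of the means of 0.38. Every RL library was above every CTL library. Summed H2A transcripts were 3.94, 3.89 and 3.15 CPM in CTL and 4.66, 4.67 and 5.02 CPM in RL, a log2 ratio of 0.39, again with no overlap.

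H3 transcripts summed to 6.82, 8.98 and 6.39 CPM in CTL and to 7.75, 9.67 and 9.97 CPM in RL, a log2 ratio of 0.30, and CTL 2 lay above RL 1. The linker histone H1 summed to 84.2 ± 10.2 CPM in CTL and 82.7 ± 8.62 CPM in RL (SD, n = 3), and H4 to 50.01 ± 6.54 and 50.6 ± 7.84 CPM. No p is given for these sums, since the genes were grouped with results of these libraries known.

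**Figure D1:**
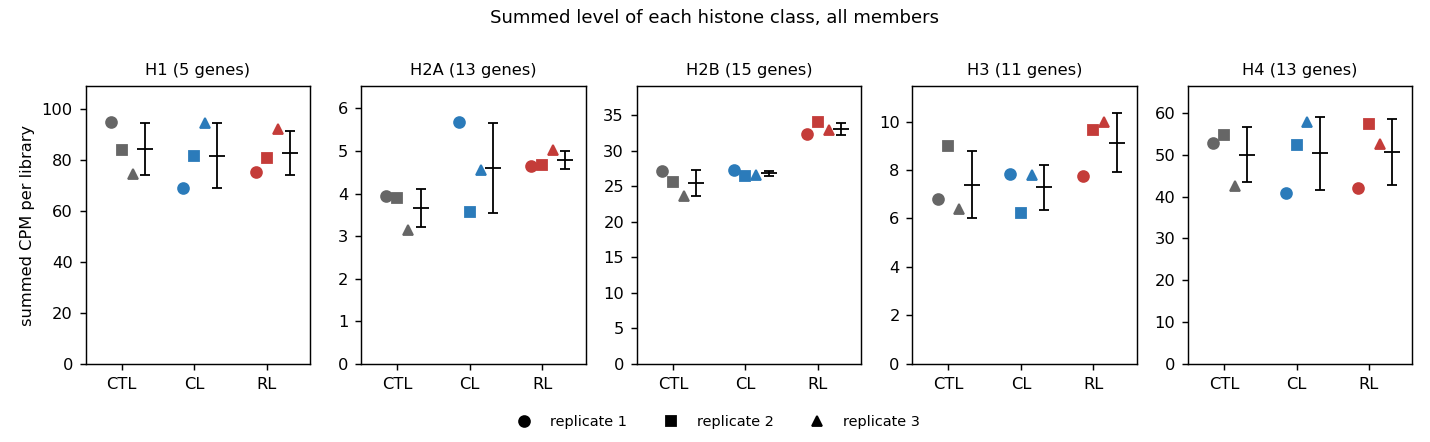
Summed CPM (vertical axis, from 0) of the genes of each histone class in each library of CTL, CL and RL; points are libraries, shaped by replicate number, and the bars beside them are the mean ± SD of the 3 libraries. In this TMM-scaled unit the H2B values of RL, 32.4 to 34.0 CPM, lie above all CTL and CL values, while H1 and H4 overlap among the groups.

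The genes were also read by annotated 3′ UTR length, and both kinds held genes that were higher in RL. All RL libraries lay above all CTL libraries for 16 of the 38 short and 6 of the 19 long 3′ UTR genes. Over 20022 genes with 10 or more counts, 9.55% did so. All RL libraries lay below for 1 short and 0 long 3′ UTR genes, where 9.28% of those 20022 genes did. The 38 short 3′ UTR genes summed to 19.4, 20.5 and 15.3 CPM in CTL, to 28.4, 18.2 and 22.6 CPM in CL and to 23.6, 24.7 and 28.6 CPM in RL. All RL libraries were above all CTL libraries, with a log2 ratio of 0.48, and CL 1 was close to the highest RL library. The 19 long 3′ UTR genes summed to 152 ± 16.1 CPM in CTL, 148 ± 23.6 CPM in CL and 155 ± 14.2 CPM in RL (SD, n = 3), a log2 ratio of RL to CTL of 0.02. Within them the sum of the 4 long 3′ UTR H2B genes stood higher in RL without overlap, with a log2 ratio of 0.29. Of these genes 3 were higher without overlap, while Hist2h2be overlapped, with 3.70 ± 0.506 CPM in CTL and 3.58 ± 0.395 CPM in RL. Hist1h4h was the most abundant of the short 3′ UTR genes, and its level was 8.62 ± 1.34 CPM in CTL and 9.06 ± 1.70 CPM in RL. Without Hist1h4h, which was set aside after its values were seen, the other 37 short 3′ UTR genes summed to 10.1, 10.98 and 8.23 CPM in CTL and 16.2, 13.9 and 19.6 CPM in RL, a log2 ratio of 0.76. The short genes of every class leaned the same way, with RL to CTL log2 ratios of 1.44 for H1, 0.60 for H2A, 0.91 for H2B, 0.46 for H3 and 0.18 for H4, and the first 3 of these did not overlap.

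**Figure D2:**
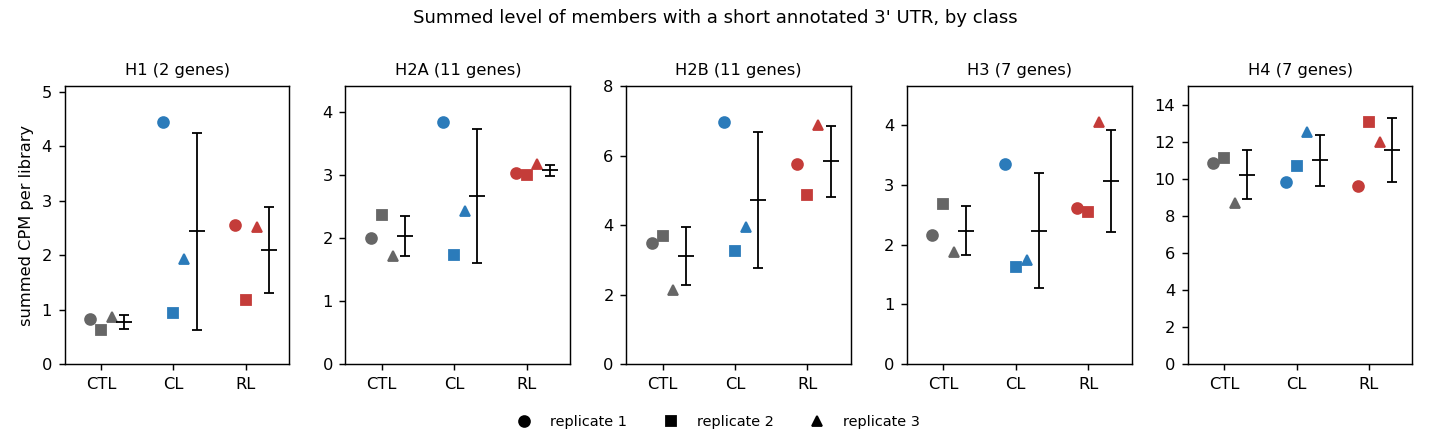
Summed CPM (vertical axis, from 0) of the short 3′ UTR genes of each class by library; points are libraries, shaped by replicate number, and bars are the mean ± SD of 3 libraries. In H1, H2A and H2B all RL points lie above all CTL points, and CL 1 (blue circle) is the highest library in H1, H2A and H2B.

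Counted gene by gene, the mean level was higher in RL than in CTL for 46 of the 57 genes, with a median log2 ratio of 0.61 after adding 0.01 CPM, against a median of -0.0035 over 20022 genes with 10 or more counts. For 22 genes all RL libraries were above all CTL libraries, where 9.55% of those 20022 genes were, and for 1 gene, Hist1h3a, all were below, where 9.28% were. Of the 38 short 3′ UTR genes 34 had the higher mean in RL, with a median log2 ratio of 0.96, and of the 19 long ones 12 did, with a median of 0.21. The genes are transcribed from shared clusters and some share sequence, so they are not independent replicates. Of the 30 genes with under 50% of their 50-base words shared with another gene, 22 had the higher mean in RL, and 12 lay above CTL and 1 below it without overlap. In the 19 genes of the first chromosome 13 group 17 had the higher mean in RL, in the 28 of the second group 23 did, and in the 7 on chromosome 3 5 did. The summed level of the first group was 6.95, 6.96 and 5.65 CPM in CTL, 11.7, 7.06 and 9.35 CPM in CL and 12.1, 10.3 and 13.1 CPM in RL. Here both limbs of the irradiated mice lay above CTL without overlap after TMM scaling, CL 2 by a small margin. By library total alone CL overlapped CTL: CL 2 had 292 counts of 44587500 and CTL 2 had 247 of 30836100. The log2 ratio of CL to CTL was 0.52, and 0.33 without CL 1. The summed levels of the second group and of chromosomes 3, 11 and 6 overlapped CTL in both limbs.

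**Figure D3:**
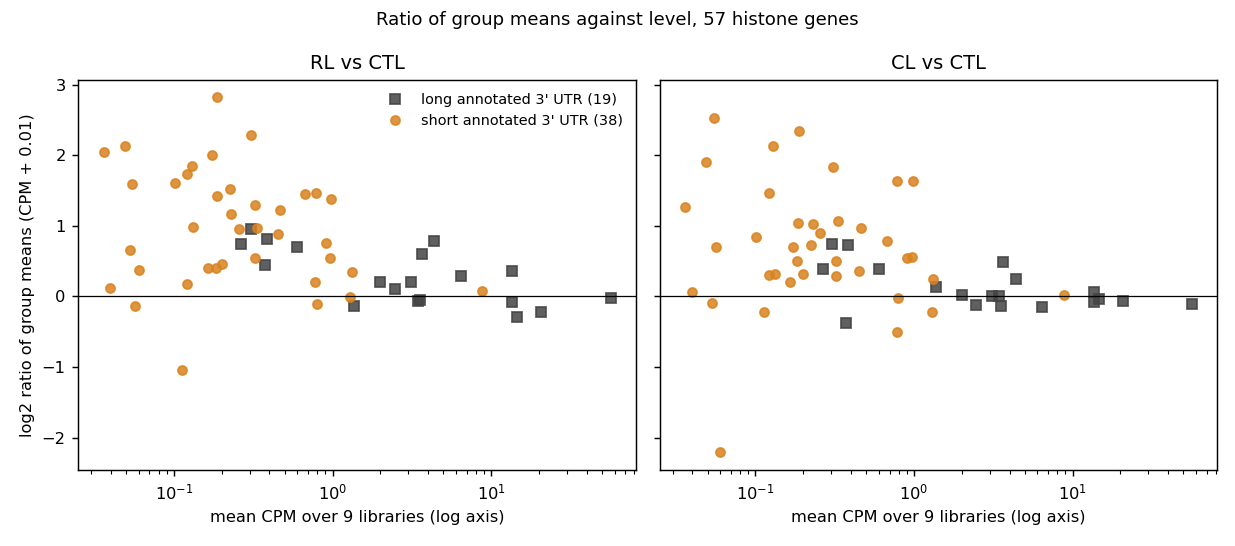
Log2 ratio of group means (CPM plus 0.01, vertical axis) against mean CPM over 9 libraries (horizontal log axis) for the 57 genes, RL against CTL on the left and CL against CTL on the right; orange circles are short and grey squares long 3′ UTR genes. Most genes under 1 CPM lie above 0 on the left, and the most abundant long 3′ UTR genes lie near 0 in both panels.

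No histone gene passed the test over all genes. In edgeR's quasi-likelihood fit of all 9 libraries 42 of the 57 genes passed the expression filter, and 0 of them were called in RL against CTL at a Benjamini-Hochberg adjusted p under 0.05, where 0.514% of 14986 tested genes were called. At an unadjusted p under 0.05 there were 14, all higher in RL, where 12% of tested genes passed in either direction. The filter keeps a thinly counted gene more easily when 1 group is high, and the minimum summed count of 10 can do so too. Of the 22 genes above CTL, Hist1h2an had 1, 0 and 0 counts in CTL and 1, 5 and 2 in RL. Hist1h2ag had 0, 1 and 0 counts in CTL and 4, 2 and 3 in RL. The count over all 57 genes above covers more genes but is not free of this selection. Without CL 1, which enters this comparison through the shared estimate of spread, 4 genes were called higher, Hist1h1a, Hist1h2af, Hist1h2bm and Hist1h4i, where 3.96% of genes were called, and 21 had an unadjusted p under 0.05, where 15.9% did. DESeq2 called 1 gene, Hist1h4i, where it called 2.05% of its genes. A fit of CTL and RL alone called 3, Hist1h1a, Hist1h2bm and Hist1h4i (3.47% of genes), and a fit with no filter on low counts called 7 (3.14% of genes). With the replicate number as a block, which pairs no CTL animal, 3 were called (2.86% of genes), and leaving out both limbs of the first irradiated mouse gave 2 (1.93% of genes). The authors' deposited table lists 3 histone genes among its 361 called genes for RL against CTL, with adjusted p-values of 0.00740 for Hist1h4i, 0.0246 for Hist1h2bm and 0.0458 for Hist1h2af.

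Among the linker histone genes, the abundant and the low ones differed. Hist1h1c stood at 63.2, 58.3 and 54.0 CPM in CTL, at 43.7, 58.1 and 60.5 CPM in CL and at 53.4, 58.3 and 60.4 CPM in RL. The groups overlapped, and CL 1 was the lowest library after TMM scaling. By library total alone CTL 3 was lower, with 1817 counts of 36517200 against 2126 of 41498400 in CL 1. The fitted RL to CTL change of Hist1h1c was -0.03 ± 0.13 on the log2 scale (SE, adjusted p = 0.961 by edgeR). Hist1h1e, the second in level, had a log2 fold change of -0.23 ± 0.22 (adjusted p = 0.755). Hist1h1a, a linker histone gene with a short 3′ UTR and known from lymphoid tissue and testis, had 0.477, 0.225 and 0.594 CPM in CTL and 1.38, 0.832 and 1.19 CPM in RL. All RL libraries were above all CTL libraries, but the highest library of all was CL 1 with 2.51 CPM, from 122 counts. Its fitted log2 fold change was 1.39 ± 0.52 (adjusted p = 0.291) and it was called without CL 1 (adjusted p = 0.0442). Hist1h1b, named after its values were seen, was likewise highest in CL 1 at 1.93 CPM, against 0.268 to 0.394 CPM in CTL and 0.343 to 1.33 CPM in RL, where it overlapped CTL.

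The H2A genes were low throughout. The most abundant, Hist3h2a, showed 1.37 ± 0.301 CPM in CTL and 1.25 ± 0.0771 CPM in RL, and Hist2h2ac showed 1.37 ± 0.290 and 1.35 ± 0.116 CPM. Neither differed beyond its spread (adjusted p = 0.852 and 0.988 by edgeR), and exons of Trim17 overlap Hist3h2a on the same strand, so its counts may be shared. Among all 13 H2A genes 7 lay higher and 0 lower in RL without overlap, where 9.55% and 9.28% of 20022 genes did. The class sum without Hist3h2a had a log2 ratio of 0.63. Hist1h2af had 3, 0 and 1 counts in the CTL libraries, 18, 3 and 8 in CL and 16, 10 and 11 in RL. RL and CTL did not overlap, and the fitted log2 fold change was 2.96 ± 0.78 (adjusted p = 0.123 by edgeR, and 0.0339 without CL 1). Of its 50-base words, 94.0% occur on either strand in transcripts of other genes. Gm44297 overlaps its exons on the opposite strand, so not all of these words need lie in histone copies. Reads may still have been assigned among copies.

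The H2B sum was carried by Hist1h2bc and Hist1h2be together with many low genes. Hist1h2bc, a long 3′ UTR gene, went from 12.9, 11.7 and 12.1 CPM in CTL to 16.0, 16.3 and 14.97 CPM in RL, with 11.8, 12.3 and 14.2 CPM in CL. All RL libraries were above every other library, and the fitted log2 fold change over CTL was 0.36 ± 0.10 (adjusted p = 0.159). Hist1h2be stood at 6.27, 6.67 and 5.62 CPM in CTL, at 5.30, 6.14 and 5.26 CPM in CL and at 6.98, 8.54 and 7.03 CPM in RL. The RL libraries were again the highest, with a log2 fold change of 0.28 ± 0.13 against CTL (adjusted p = 0.412), and exons of Hist1h1e overlap this gene on the same strand. Hist1h2bm, a short 3′ UTR gene, had 5, 1 and 4 counts in CTL, 29, 13 and 5 in CL and 22, 17 and 19 in RL. In CPM this was 0.0908 ± 0.0544 in CTL and 0.480 ± 0.0752 in RL, a log2 fold change of 2.35 ± 0.59 (adjusted p = 0.107; 0.0183 without CL 1), and CL 1 at 0.596 CPM was the highest library.

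The most abundant H3 and H4 genes did not differ beyond their spread. Hist1h3e had 2.46 ± 0.317 CPM in CTL and 2.65 ± 0.266 CPM in RL, and Hist1h3f had 1.89 ± 0.538 and 2.17 ± 0.515 CPM. Hist1h4c went from 15.7 ± 2.12 to 12.8 ± 3.12 CPM and Hist1h4d from 14.1 ± 1.83 to 13.4 ± 1.99 CPM, with adjusted p-values of 0.676 and 0.887 by edgeR. Hist4h4, alone on chromosome 6, had 3.48 ± 0.718 and 3.33 ± 0.619 CPM. Less abundant genes of both classes lay above CTL in every RL library. In H3 they were Hist1h3b, Hist1h3c, Hist1h3g and Hist1h3h, 4 of 11 genes. In H4 they were Hist1h4a, Hist1h4f, Hist1h4i, Hist1h4j and Hist1h4k, 5 of 13 genes. Over 20022 genes with 10 or more counts, 9.55% lay above CTL in this way and 9.28% below. The H3 gene Hist1h3a lay below CTL in every RL library, with means of 0.148 CPM in CTL and 0.0662 CPM in RL. All but Hist1h4i were named after their values were seen. Hist1h4i had the smallest adjusted p of the 42 tested genes. It stood at 3.56, 3.38 and 3.15 CPM in CTL, at 3.14, 4.01 and 4.86 CPM in CL and at 5.88, 5.95 and 5.51 CPM in RL. All RL libraries were above all others, and CL 1 was the lowest of the CL libraries. Over CTL the log2 fold change in RL was 0.78 ± 0.16, with an adjusted p of 0.0554 by edgeR, 0.00561 by DESeq2 and 0.00444 by edgeR without CL 1. Its annotated transcript runs 330 bases beyond the stem-loop, and 28.9% of its 50-base words are shared.

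**Figure D4:**
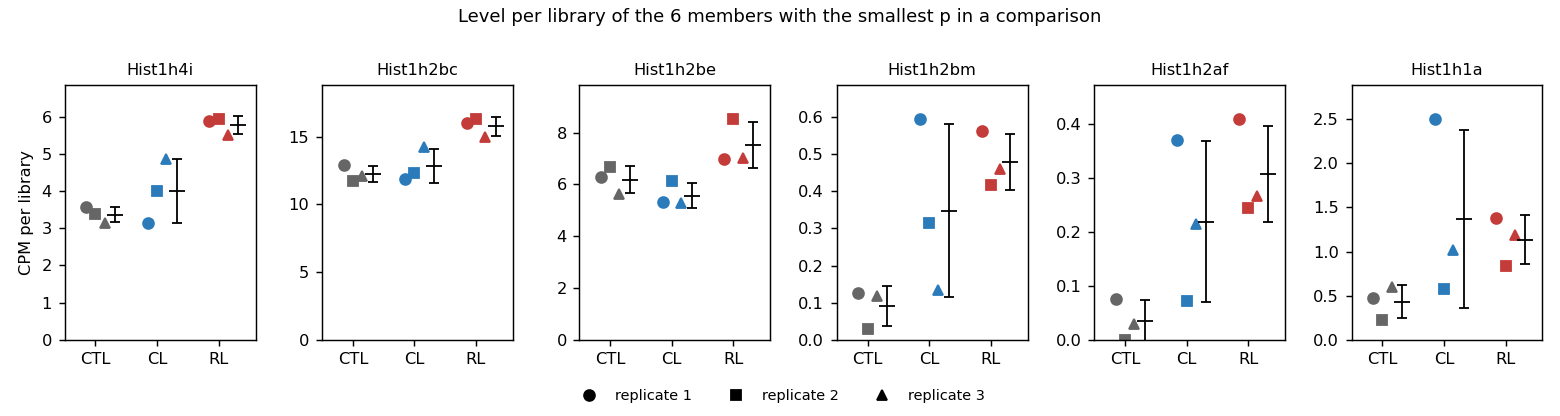
CPM per library (vertical axes, from 0, each panel with its own scale) of the 6 histone genes with the smallest unadjusted p in any of the 3 comparisons; points are libraries, shaped by replicate number, and bars are the mean ± SD of 3 libraries, drawn down to 0 where they would pass it. RL lies above CTL in all 6 panels, and CL 1 is as high as RL or higher in Hist1h2bm and Hist1h1a but not in Hist1h4i, Hist1h2bc or Hist1h2be. In Hist1h2af CL 1, at 0.370 CPM, lies within the RL values of 0.245 to 0.409 CPM.

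The opposite limb was compared with the muscle of unirradiated mice. Each of the 5 summed classes overlapped CTL, and several values moved with CL 1. The mean was higher in CL than in CTL for 42 of 57 genes, with 3 genes entirely above CTL and 2 entirely below, where 4.06% and 5.42% of genes were. Without CL 1 the higher mean was in CL for 39, and 5 genes were entirely above CTL and 5 entirely below, where 8.82% and 10.1% of genes were. The median log2 ratio of the 57 genes was 0.35 with CL 1 and 0.14 without it. The short 3′ UTR genes gave a log2 ratio of the summed levels of 0.33, and of 0.15 without CL 1. Those without Hist1h4h summed to 21.8 CPM in CL 1 and to 9.06 and 12.3 CPM in CL 2 and CL 3, against 8.23 to 10.98 CPM in CTL.

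CL 1 was the highest of the 9 libraries for 17 of the 57 genes and for 15 of the 38 short 3′ UTR genes, and the highest for 21.0% of the 20022 genes. After TMM scaling the long 3′ UTR genes went the other way there, with 122 CPM in CL 1 against 152 and 169 CPM in CL 2 and CL 3. By library total alone CL 1 was not the lowest of these: it had 5939 counts of 41498400, and CL 2 had 6276 of 44587500. No histone gene was called in CL against CTL, where 0% of all tested genes were called. At an unadjusted p under 0.05 edgeR gave 6 genes, all higher, where 6.65% of genes passed, and without CL 1 it gave 2, where 3.6% passed. DESeq2 called 0 histone genes, and a fit with no filter on low counts called 4 (2.51% of genes). Markers of lymphocytes and macrophages were also highest in CL 1, and their part in its histone levels was not tested.

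The limbs of the same animals were compared to set the irradiated limb against the opposite limb within a mouse. Summed H2B was higher in RL in each of the 3 mice, with log2 ratios of 0.25, 0.36 and 0.31. CL stood at 27.3, 26.5 and 26.6 CPM, so no RL library overlapped after TMM scaling. By library total alone RL and CL overlapped: CL 1, with 1326 H2B counts of 41498400, lay above RL 3, with 1358 of 42768000. Within mice the long 3′ UTR H2B genes alone gave log2 ratios of 0.39, 0.33 and 0.20. The short ones gave -0.28 in the mouse of CL 1 and 0.58 and 0.80 in the other mice. The same split by mouse was seen for all short 3′ UTR genes, with -0.27 in the mouse of CL 1 and 0.43 and 0.34 in the others. Summed H1 differed by 0.12, -0.01 and -0.04 and summed H4 by 0.04, 0.13 and -0.14, so these classes had no common direction. H2A gave -0.29, 0.39 and 0.14, and H3 gave -0.02, 0.64 and 0.35.

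Gene by gene, 42 of 57 genes had the higher mean in RL than in CL, 7 did not overlap and were higher and 1 did not overlap and was lower, where 4.14% and 4.39% of all genes did so. Without CL 1 the higher mean was in RL for 46, and 20 genes were higher and 2 lower without overlap, where 11.9% and 10.9% of all genes were. No histone gene was called in RL against CL, where 0.0734% of tested genes were called, nor in the fit without CL 1, where 0.897% were, nor with the mouse as a block, where 0.436% were, and DESeq2 also called 0. At an unadjusted p under 0.05 there were 5 genes, all higher in RL, where 4.26% of genes passed. Without CL 1 there were 16, of which 15 were higher in RL, where 7.99% of genes passed. Hist1h2be had a log2 fold change of 0.43 ± 0.13 (adjusted p = 0.728), Hist1h4i of 0.53 ± 0.16 (adjusted p = 0.728) and Hist1h2bc of 0.30 ± 0.10 (adjusted p = 0.904). RL enters this comparison and the one with CTL, so their agreement is not separate evidence.

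Genes that act with the clustered histones were read from lists. The list of replication-independent variants holds genes of which most can be made outside S phase with ordinary poly(A) tails. It had 0 of 10 tested genes passing in RL against CTL, with a median log2 fold change of 0.02 against -0.01 over all tested genes. H3f3b, which encodes the variant H3.3, had 23.4 ± 2.59 CPM in CTL and 24.8 ± 1.67 CPM in RL. H2afz, which encodes H2A.Z, had 12.95 ± 1.07 and 14.8 ± 1.06 CPM. H2afj had 1.51 ± 0.0380 and 1.85 ± 0.0344 CPM, higher in RL without overlap (adjusted p = 0.547 by edgeR). Of 14 tested genes for histone mRNA transcription and 3′ end processing 0 passed, with a median of 0.03. Slbp, the stem-loop binding protein, had 3.01 ± 0.270 CPM in CTL and 2.95 ± 0.0509 CPM in RL. Npat, the coactivator of histone gene transcription, had 9.49 ± 1.21 and 9.69 ± 0.0876 CPM. Srrt had 12.1 ± 0.878 and 10.6 ± 0.382 CPM, lower in RL without overlap (adjusted p = 0.539 by edgeR). Eri1 overlapped, with 5.14 ± 0.113 and 5.83 ± 0.842 CPM. Of 11 tested histone chaperones 0 passed, with a median of 0.11. Asf1b, a chaperone of H3 and H4 found in dividing cells, had 0.0725 ± 0.0388 CPM in CTL and 0.288 ± 0.0964 CPM in RL (log2 fold change 1.93 ± 0.57, adjusted p = 0.168). Chaf1a had 0.556 ± 0.131 and 0.744 ± 0.0455 CPM, higher in RL without overlap (adjusted p = 0.630 by edgeR).

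Genes of S phase and DNA replication, summed over a list of 24, stood at 54.7, 51.8 and 52.5 CPM in CTL, at 77.4, 55.0 and 55.6 CPM in CL and at 69.5, 66.7 and 70.3 CPM in RL. All RL libraries were above all CTL libraries and CL 1 was the highest. Of the 22 tested, 0 were called in RL against CTL, 22 had a log2 fold change above 0, and the median was 0.37. Without CL 1 4 of them were called higher, Mki67, Top2a, Ccna2 and Cdk1, where 3.96% of all tested genes were called. Mki67, a proliferation marker, had 1.78, 1.24 and 1.37 CPM in CTL, 10.4, 0.846 and 2.08 CPM in CL and 7.85, 4.16 and 6.04 CPM in RL. In RL over CTL its log2 fold change was 2.03 ± 0.68 (adjusted p = 0.232; 0.00337 without CL 1). Rrm2, a subunit of the enzyme that makes deoxynucleotides, overlapped, with 0.418 ± 0.106 CPM in CTL and 0.565 ± 0.206 CPM in RL.

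Markers of other cell types were read in the same libraries, and their direction differed between lists. Macrophage markers summed to 54.7 to 76.3 CPM in CTL and 122 to 174 CPM in RL. Of 8, 2 were called higher in RL, Ccr2 and Itgam, where 0.514% of all tested genes were called. Without CL 1, 7 were called higher, where 3.96% of all tested genes were called. Lymphocyte markers summed to 0.0892 to 0.141 CPM in CTL and 0.122 to 0.194 CPM in RL, near 0 in both. Satellite cell markers summed to 8.35 to 10.1 CPM in CTL and 3.32 to 4.23 CPM in RL. Of the 4 tested, 0 had a log2 fold change above 0, and 3 were called lower, Pax7, Calcr and Chodl. In the fit without CL 1 and by DESeq2, 4 were called lower. Erythroid markers summed to 78.1 to 85.4 CPM in CTL and 54.0 to 78.2 CPM in RL, with 0 of 5 tested called. The 6 myofibre markers, including Ckm and Tnnt3, were abundant in all libraries and stood lower in RL, at 206571 to 229519 CPM summed in CTL and 155807 to 183921 CPM in RL. The groups did not overlap for the sum or for 5 of the 6 genes, where 9.28% of 20022 genes lay lower in this way. The median log2 fold change was -0.39. By edgeR 0 of 6 were called, while DESeq2 called Tnnt3 lower (adjusted p = 0.0431), where it called 2.05% of its genes. The part of these cell types in the histone levels was not tested. In bulk muscle RNA more cells of a type and more RNA per cell cannot be told apart.

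**Figure D5:**
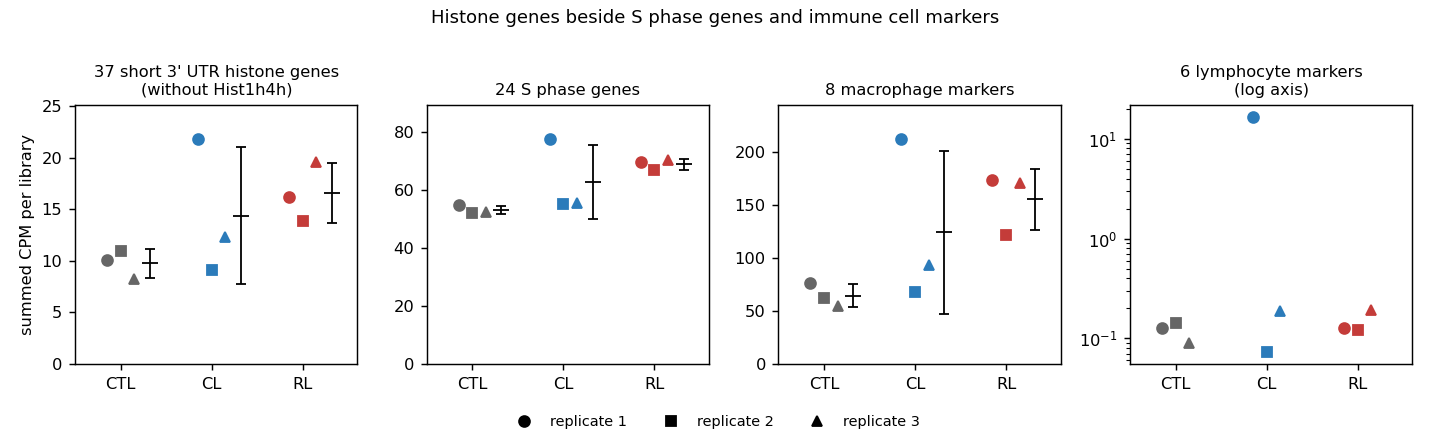
Summed CPM per library of the short 3′ UTR histone genes without Hist1h4h, of 24 S phase genes, of 8 macrophage markers and of 6 lymphocyte markers (vertical axes from 0, except the lymphocyte panel, which has a log axis and no bars); points are libraries, shaped by replicate number, and bars are the mean ± SD of 3 libraries. CL 1 is the highest library in all 4 panels, and RL lies above CTL without overlap in the first 3.

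Over 14944 tested genes outside the clusters, those whose level across the 9 libraries was most like the summed short 3′ UTR genes were Cmtm3 (Pearson r = 0.97) and Itgb2 (r = 0.96), followed by Bend4, Tbc1d9 and B830012L14Rik. For the long 3′ UTR genes they were Dkk2 (r = 0.95), Fer, D8Ertd738e, Ccdc28b and Sema3c, and for all 57 genes Mrpl40 (r = 0.94), Ccdc15, Polb, Smoc2 and C430019N01Rik. These are the highest of many values over 9 libraries that share depth and composition, and are a description only.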

How the data were processed

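Raw gene counts of 9 gastrocnemius libraries, as deposited by the authors, were the input of every test. Per the submitters' processing notes the genome build was GRCm38.p5 and DESeq2 was used; which aligner, counting program, strand setting and annotation they used is not given in the sources used here. Per the labels' protocols the library kit was stranded. Without the counting rules, genes with near-identical copies, overlapping genes and antisense partners are uncertain. Of the 57 genes, 27 share at least 50% of their 50-base words with another gene, and 5 have a same-strand and 16 an opposite-strand exonic overlap. A word was taken as shared if it occurred on either strand of another gene's transcript, so antisense partners can raise this share. The authors also deposited, per comparison, log2 fold changes, test scores and p-values; from that table only log2 fold changes and adjusted p-values were read. The number of value columns without a sample was 0.

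Counts were tested with edgeR 4.0.16 (R 4.3.3): quasi-likelihood F test, all 9 libraries in 1 fit without covariates, filter by group, TMM scaling, Benjamini-Hochberg adjustment over all tested genes at 0.05. DESeq2 1.42.0 was an alternative. SE is the absolute log2 fold change over the square root of F. The number of libraries limits the precision. Every replicate pair differed by more than counting noise (lowest chi-square per degree of freedom 16.4 over 11177 genes). The fit was also run on simulated counts, drawn independently for each library with changes in RL only. That simulation held no pairing of limbs, no library like CL 1 and no reads shared among copies, so it does not check these. Replicates of a group are separate mice. RL and CL numbers pair because they come from the same animals, and the correlations of their deviations were 0.277, 0.410 and 0.0758; CTL numbers pair nothing.

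Members, lists and tests were chosen with earlier results of these data known. Named by rule were the 2 most abundant genes of each class, the 3 with the smallest p per comparison and called genes, always Hist1h1c, Hist1h2bc, Hist3h2a and Hist4h4, 2 genes with the smallest p per list, and Slbp, Npat, H3f3b, H2afz, Mki67 and Rrm2; other names were chosen after their values were seen.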

Additional observations from a re-analysis of the deposited data

How the results depend on the processing

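Several small summed differences changed sign when 1 library was left out: H1, H4 and long 3′ UTR genes in all 3 comparisons, H3 in CL against CTL and H2A in RL against CL. The count of histone genes called in RL against CTL, 0 in the fit of all libraries, was 1 with DESeq2, 7 with no filter on low counts, 3 with CTL and RL alone, 3 with the replicate block (2.86% of genes), 2 without the mouse of CL 1 and RL 1 (1.93% of genes), and 0 to 4 with 1 library left out, 4 of them without CL 1. In CL against CTL it was 4 with no filter and 0 to 0 with 1 library left out, and in RL against CL 0 to 0. The log2 ratio of RL to CTL rose from 0.39 to 0.63 for H2A and from 0.48 to 0.76 for short 3′ UTR genes without the most abundant gene. For H2B in RL against CL the log2 ratio was 0.27 with the library total alone, where the RL and CL libraries overlapped. Among 666 alternatives of 45 values of named genes, 13 passed the threshold newly, for Hist1h4i, Hist1h2bm, Hist1h2af and Hist1h1a.

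With 1 library left out, the log2 ratio of RL to CTL ran for H1 from -0.11 to 0.07, for H2A from 0.29 to 0.44, for H2B from 0.33 to 0.43, for H3 from 0.21 to 0.47, for H4 from -0.09 to 0.13, for short 3′ UTR genes from 0.36 to 0.56 and for long ones from -0.06 to 0.10. That of CL to CTL ran for H1 from -0.16 to 0.06, for H2A from 0.15 to 0.48, for H2B from 0.02 to 0.12, for H3 from -0.12 to 0.14, for H4 from -0.10 to 0.14, for short from 0.15 to 0.47 and for long from -0.15 to 0.07. That of RL to CL ran for H1 from -0.09 to 0.14, for H2A from -0.09 to 0.24, for H2B from 0.29 to 0.32, for H3 from 0.22 to 0.43, for H4 from -0.12 to 0.13, for short from 0.01 to 0.33 and for long from -0.05 to 0.18. The replicate block, which pairs animals only between RL and CL, changed no other call. Depth limits the low genes most: a median of 8 to 25 counts per library leaves differences of single genes hard to detect.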
